A study of Mesocricetus auratus with 6 samples.

Results

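The enzymes described here add methyl groups to histone lysines (writers, the histone lysine methyltransferases and the cofactors they need) or remove them (erasers, the lysine demethylases). They were taken by name from the annotation of an Affymetrix mouse array, as every gene that a single-symbol probe set names Kdm, Kmt, Setd, Suv39h, Ehmt, Nsd or Smyd with its family ending, together with Ezh1, Ezh2, Eed, Suz12, Ash2l, Wdr5 and Jmjd6; the rule leaves out Uty, and Dot1l and Ash1l, which it also names, were not analysed here. This gave 39 of the 12393 genes measured, 25 writers and 14 erasers, on 73 probe sets. Where a gene had several probe sets, 1 was selected on its mean signal over all 6 arrays, the brightest standing for the gene; no other measured value enters the rule. The list was proposed with results of this comparison known, so the counts below are descriptions of these arrays.

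The RNA came from untreated pregnant Syrian golden hamsters (Mesocricetus auratus), from uterus taken on day 5. The 2 groups, with 3 arrays each, were implantation sites, where an embryo is implanting, and interimplantation sites, the embryo-free stretches between them; age and genetic background are not given in the sources used here. Per the design text the RNA sets were from 3 different animals, and whether arrays with the same number share an animal is not given there. Both groups are whole pieces of uterus, so fewer cells of a type and less RNA per cell cannot be told apart, and the probes were designed on mouse sequence, so a mismatch with hamster RNA can dim a probe set and shrink its difference.

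Methyl marks on histone tails are read according to the lysine that carries them. Methylation of H3K4 and H3K36 accompanies active genes, H3K9 and H3K27 methylation accompanies silent ones, and H4K20 methylation is tied to chromatin compaction, replication and repair. Writers with a SET domain take the methyl group from S-adenosylmethionine, and erasers are either flavin-dependent (the LSD family) or JmjC proteins that need iron, oxygen and 2-oxoglutarate. In the mouse uterus, Ezh2, the catalytic subunit of Polycomb repressive complex 2, is known for its part in stromal decidualisation, the change of fibroblast-like cells that follows implantation.

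Values are log2 signals made by RMA, and differences are implantation minus interimplantation. A gene was called when its adjusted p, from limma with Benjamini-Hochberg adjustment over all 22626 probe sets, was under 0.05; every adjusted p below is from that fit unless another setting is named. The array medians ran from 4.55 to 4.57. All 39 genes were brighter than the median of the 27 Bacillus controls (2.68), probe sets for bacterial RNA, and 15 were brighter than the brightest of these (5.79). The p-values and intervals of limma rest on the spread between 3 arrays a group, after limma pulls it towards that of all probe sets. The number of arrays limits the precision.

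Of the 39 genes, 4 were called. Ezh2 was 1.79-fold higher at the implantation site. Kmt5b, which places di- and trimethylation on H4K20, was 2.12-fold lower, Kdm3a, which removes H3K9 methylation, was 1.72-fold lower, and Kdm6a, which removes H3K27 methylation, was 1.57-fold lower. Among writers 1 of 25 rose and 1 fell; among erasers 2 of 14 fell and 0 rose in the limma fit, and at an unadjusted p under 0.05 4 erasers were lower and 0 higher, and 3 writers were lower and 4 higher. Over all genes, by the same rule, 2.54% were called, 1.36% higher and 1.18% lower, against 10.3% of these 39. The groups did not overlap in 11 of the 39 genes (28.2%), 4 higher and 7 lower, beside 20.1% of all genes (8.02% higher and 12.1% lower). The same 11 genes had an unadjusted p under 0.05, which 14.8% of all genes reached (6.14% higher and 8.67% lower).

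Most of the 39 genes lay close to 0. For 26 of them the difference was under 0.15 in size, and the median was −0.020, the same as that of all genes (−0.020). The writers' median was 0.039, with 15 above 0 and 10 below, and the erasers' median was −0.11, with 2 above 0 and 12 below. In all genes 56.2% were below 0, compared with 85.7% of the erasers and 40.0% of the writers. These medians shift with single arrays: without interimplantation array 2 they were −0.013 for the writers and −0.055 for the erasers. Without interimplantation array 3 they were 0.010 and −0.15, and without implantation array 2 the writers' median was 0.012. The signs counted here are those of the brightest probe sets. With the mean of the probe sets of a gene, the medians were 0.035 for the writers and −0.076 for the erasers. When each array was scaled to its hybridisation controls, spiked bacterial and phage transcripts whose mean signal was 6.64 ± 0.17 at the site and 7.03 ± 0.27 between sites (SD, n = 3), the median of all genes moved to 0.38, that of the writers to 0.44 and that of the erasers to 0.29. Each direction given here is thus set against the average gene on the arrays.

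**Figure D1:**
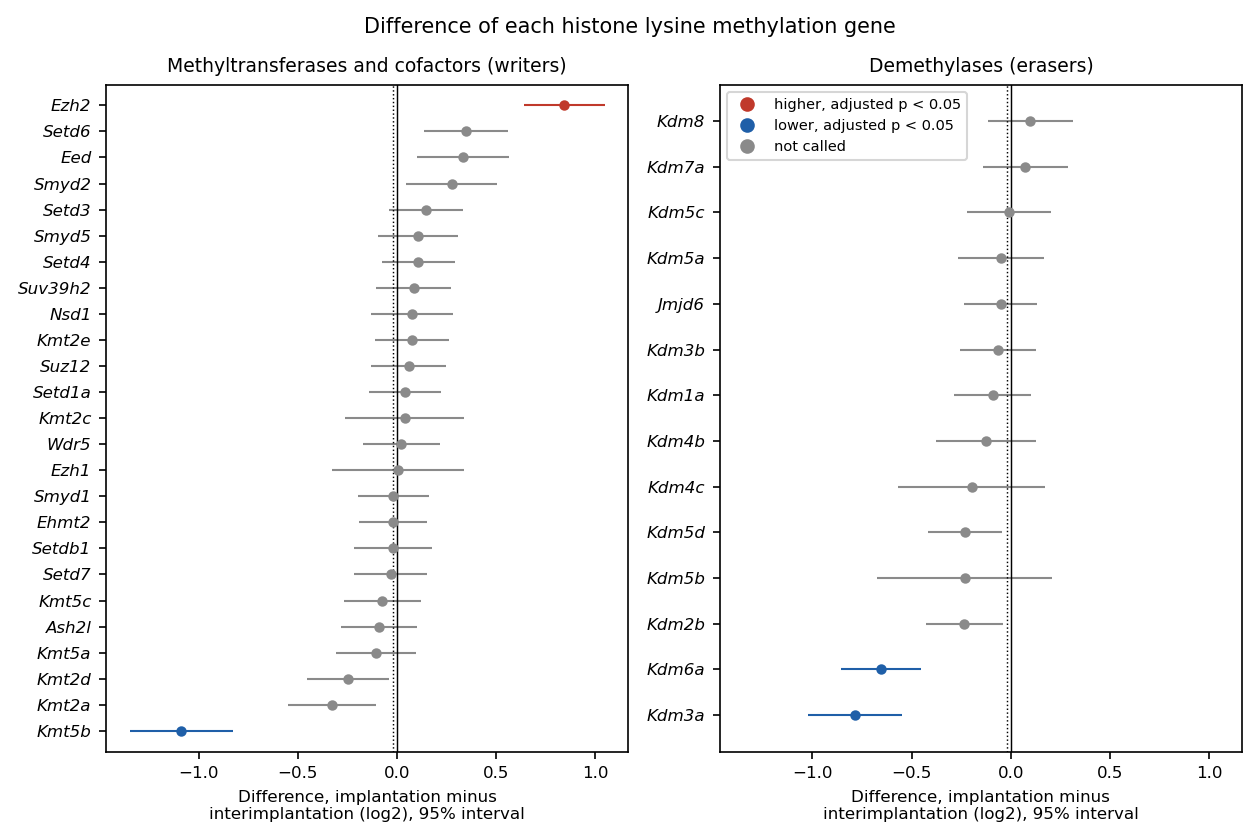
Difference (implantation minus interimplantation, log2) of each gene by its brightest probe set, with its 95% interval from the limma fit; writers are on the left and erasers on the right, and the dotted line marks the median of all 12393 genes (−0.020). Ezh2 (0.84) stands at the top of the writers, Kmt5b (−1.09) at the bottom, and Kdm3a (−0.79) and Kdm6a (−0.65) at the bottom of the erasers, while the remaining 35 genes lie within 0.35 of 0.

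The enzymes of H3K27 methylation had a called gene on each side. Ezh2 (probe set 1416544_at) had signals of 4.88, 4.95 and 4.78 on implantation arrays 1, 2 and 3, and of 3.95, 3.95 and 4.18 on interimplantation arrays 1, 2 and 3. All 3 implantation arrays were above all 3 interimplantation arrays, by more than the spread within either group. The means were 4.87 ± 0.09 and 4.02 ± 0.13 (SD, n = 3), and the difference was 0.84 (SE 0.093, adjusted p = 8.38e-04), which placed Ezh2 at percentile 99.8 of the differences of all genes. Its level lay below the brightest Bacillus control, and it has no further probe set with a single symbol here.

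The other core subunits of the complex were not called. Eed, which binds the finished mark and stimulates the enzyme, had 5.02, 5.35 and 5.09 at the site and 4.67, 4.85 and 4.93 between sites. Its groups did not overlap, but the difference of 0.33 did not pass (SE 0.11, adjusted p = 0.154), and its dimmer probe set was at −0.090. Suz12, the scaffold subunit, was at 0.058 (95% interval −0.13 to 0.25) by the brightest of 6 probe sets, which ran from −0.12 to 0.14. Ezh1, the alternative catalytic subunit, was at 0.0040 with a wide interval (−0.33 to 0.34), its arrays spreading from 4.24 to 4.71 at the site and from 4.26 to 4.85 between sites.

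On the eraser side, Kdm6a (1427672_a_at) had 6.49, 6.51 and 6.42 at the site and 7.00, 7.28 and 7.10 between sites. Again no array of a group reached into the other group. The means were 6.47 ± 0.05 and 7.13 ± 0.14 (SD, n = 3), and the difference was −0.65 (SE 0.092, adjusted p = 0.00320). Its other probe set (1427235_at) was dimmer than the Bacillus median and at −0.077 (adjusted p = 0.792), so the call rests on a single probe set whose suffix marks it as matching several transcripts. Such probe sets are called shared below, and the transcripts they match can be those of the same gene. The call was lost when they were left out, which leaves only the dimmer 1427235_at for Kdm6a. It was also lost when arrays were scaled to the hybridisation controls (−0.26, adjusted p = 0.283). Kdm6b, the related H3K27 demethylase, was not analysed here.

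The largest difference among the 39 genes was in the signal of Kmt5b, an H4K20 writer, by its brightest probe set. This probe set (1434999_at) had 5.58, 5.90 and 5.38 at the site and 6.76, 6.73 and 6.63 between sites. The lowest interimplantation array stood 0.73 above the highest implantation array, and the implantation arrays were the more scattered. The means were 5.62 ± 0.26 and 6.71 ± 0.07 (SD, n = 3), and the difference was −1.09 (SE 0.12, adjusted p = 8.35e-04). The other probe sets of Kmt5b moved less: 1455171_at was at −0.32 (adjusted p = 0.143), 1451817_at at −0.14 and 1425740_at at −0.064 (adjusted p = 0.801). All 4 were negative, and the mean over the gene's probe sets was at −0.40 (adjusted p = 0.0110).

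Kmt5a, which places the first methyl group on H4K20, was at −0.10 (95% interval −0.31 to 0.097), and its other probe set was at 0.30 (adjusted p = 0.244). Kmt5c, the paralogue of Kmt5b with the same di- and trimethylating activity, was at −0.073 (95% interval −0.27 to 0.12). The difference of Kmt5b minus that of Kmt5c was −1.01 (95% interval −1.39 to −0.64), and minus that of Kmt5a it was −0.98 (95% interval −1.51 to −0.46). The pairs were chosen after their values were seen, and each gene stands by its brightest probe set. The log ratios of these pairs did not overlap between the groups. The two-sided exact permutation p of each was 0.10, the smallest that 3 against 3 arrays allow, so this test could not give a lower one.

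**Figure D2:**
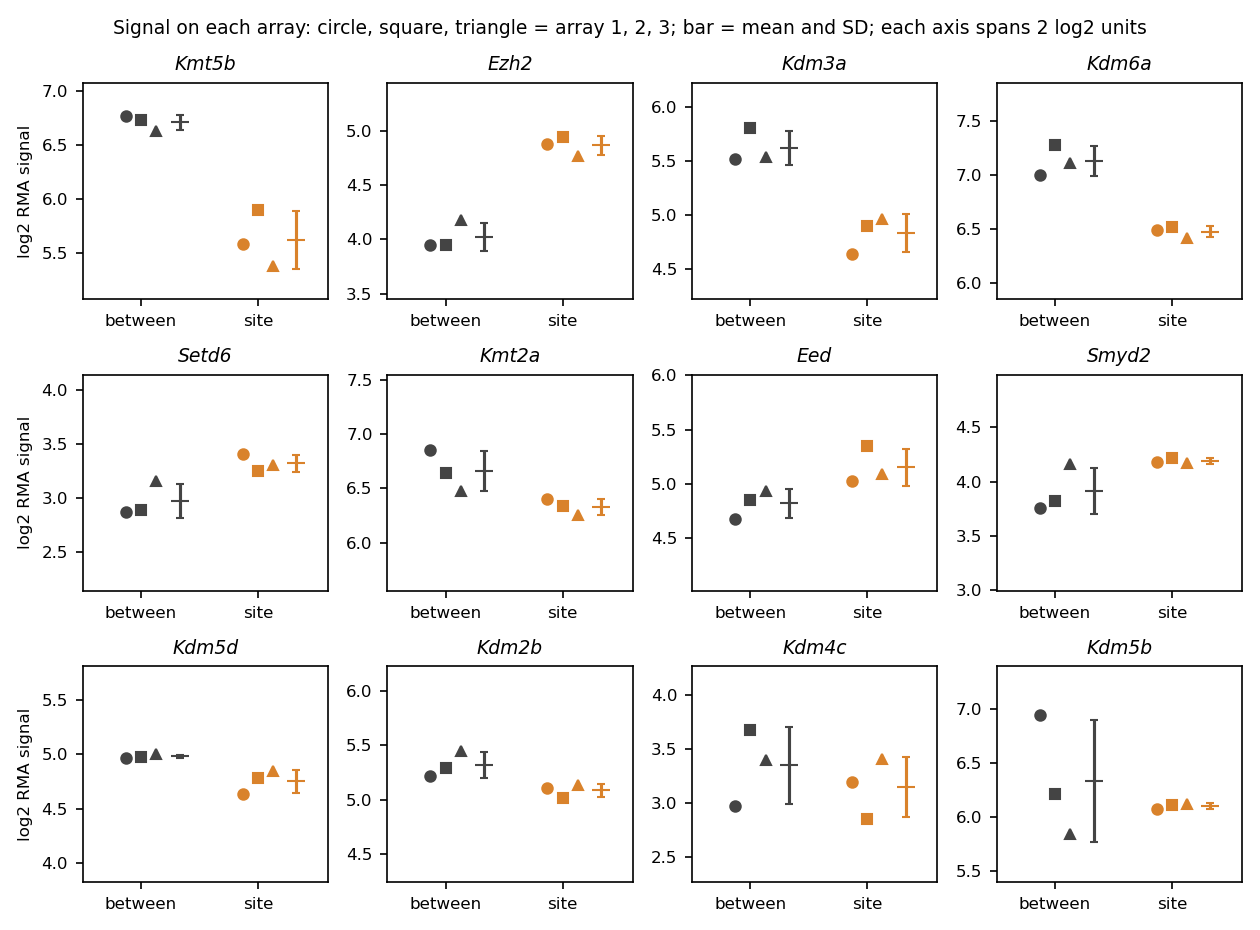
Log2 RMA signal on each array for the 4 called genes (upper row), the next 4 writers by p (middle row) and the next 4 erasers by p (lower row), with the mean and SD of each group; "between" marks interimplantation arrays and "site" implantation arrays, and each axis spans 2 log2 units but has its own start. The groups lie apart in the upper row (Kmt5b at 5.38 to 5.90 against 6.63 to 6.76), and interimplantation array 1 (6.95) lies apart from the other arrays in Kdm5b.

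The enzymes of H3K9 methylation had a called gene among erasers and none among writers. Kdm3a (1426810_at), a JmjC demethylase of mono- and dimethylated H3K9, had 4.64, 4.90 and 4.96 at the site and 5.52, 5.80 and 5.54 between sites. The groups were separated by 0.55, more than the spread within either. The means were 4.84 ± 0.17 and 5.62 ± 0.16 (SD, n = 3), and the difference was −0.79 (SE 0.11, adjusted p = 0.00311). It is the only probe set of Kdm3a with a single symbol, and with scaling to the hybridisation controls it was at −0.39 and not called (adjusted p = 0.154).

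Its paralogue Kdm3b was at −0.064 (95% interval −0.25 to 0.13), from 7.13 to 7.27 at the site and from 7.18 to 7.37 between sites. Kdm3a's difference minus Kdm3b's was −0.72 (95% interval −1.13 to −0.32; two-sided exact permutation p = 0.10, the smallest possible). For Ezh2 and Ezh1 the same comparison gave 0.84 (95% interval 0.027 to 1.65; exact permutation p = 0.10). These 4 paralogue pairs were chosen after their values were seen, their p-values adjusted over the 4 pairs were also 0.10, and the intervals use the spread of the log ratios between arrays.

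The H3K9 writers measured were Ehmt2, which mono- and dimethylates H3K9 in euchromatin, Setdb1, which acts with Trim28 on repeats, and Suv39h2, an enzyme of pericentric heterochromatin. None of these 3 was called, and their differences ran from −0.022 to 0.084. Ehmt2 was among the least variable genes of the set, with signals of 6.19 to 6.24 at the site and 6.21 to 6.26 between sites (difference −0.020, 95% interval −0.19 to 0.15). The KDM4 erasers of trimethylated H3K9, Kdm4b (−0.13) and Kdm4c (−0.20), were also not called. Kdm4c scattered from 2.85 to 3.40 at the site and from 2.97 to 3.68 between sites, and the groups overlapped.

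Of the 9 H3K4 writers and cofactors none was called by limma, and the unadjusted p was under 0.05 for Kmt2a and Kmt2d. Kmt2a, the MLL protein of Hox gene maintenance, had 6.40, 6.34 and 6.25 at the site and 6.85, 6.65 and 6.48 between sites. The groups did not overlap, and the difference of −0.33 did not pass (SE 0.10, adjusted p = 0.146). Its dimmer probe set (1452377_at) was at −0.57 (adjusted p = 0.157). With the mean of its 2 probe sets Kmt2a was called (−0.45, adjusted p = 0.0252), whereas with scaling to the hybridisation controls it was at 0.070.

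Kmt2d, an enhancer H3K4 monomethyltransferase, had 6.92, 6.82 and 6.94 at the site and 6.99, 7.30 and 7.14 between sites, without overlap (−0.25, adjusted p = 0.253). Its partner enzyme Kmt2c (0.039) and the promoter enzyme Setd1a (0.041) had group means within 0.05 of each other. So did the shared cofactor Wdr5 (0.021) by its brightest probe set, and the other of its 2 probe sets was at 0.29 (adjusted p = 0.206). Ash2l (−0.091), Kmt2e (0.076), Setd7 (−0.032) and the muscle protein Smyd1 (−0.018) had intervals that included 0. The erasers of this mark gave no call either. Kdm1a, the LSD family enzyme of mono- and dimethylated H3K4, was at −0.091 (95% interval −0.29 to 0.10), and the KDM5 enzymes of trimethylated H3K4 ran from −0.23 to −0.0068.

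Kdm5b was the least settled of these. It had 6.07, 6.11 and 6.12 at the site and 6.95, 6.21 and 5.84 between sites, so the interimplantation arrays lay on both sides of the implantation arrays. The difference was −0.23 (SE 0.20, adjusted p = 0.682), and without interimplantation array 1 it was 0.073. The dimmer probe set of Kdm5b (1427142_s_at) was at 0.063 (adjusted p = 0.822). Kdm5d, which lies on the Y chromosome in the mouse, had 4.63, 4.78 and 4.84 at the site and 4.97, 4.98 and 5.00 between sites. These groups did not overlap (−0.23, adjusted p = 0.229), and the signal stood above the Bacillus median. The interimplantation pieces were embryo-free tissue of pregnant females, where a Y-linked gene gives no RNA. If the hamster gene is also Y-linked, this probe set measured something else there, which was not tested. Kdm5d remains in the eraser counts above, and its other probe sets were at −0.25 and 0.070. Kdm5c, its X-linked relative, at 6.79 to 7.10 at the site and 6.86 to 7.03 between sites, was at −0.0068.

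For H3K36, Smyd2 and Nsd1 were measured. Smyd2, which also methylates p53, had 4.18, 4.22 and 4.17 at the site and 3.76, 3.82 and 4.16 between sites. The groups were apart by 0.011, with interimplantation array 3 next to the implantation arrays, and the difference of 0.28 did not pass (adjusted p = 0.251). Nsd1 was at 0.076. Kdm2b, a JmjC eraser that also brings Polycomb complex 1 to CpG islands, had 5.11, 5.02 and 5.13 at the site and 5.22, 5.29 and 5.45 between sites (−0.23, adjusted p = 0.245), with no overlap. Kdm7a (0.073), a JmjC eraser of the same family group as Kdm2b, lay near 0. So did Kdm8 (0.10) and Jmjd6 (−0.050), JmjC proteins whose histone targets are fewer or debated. The dimmer probe sets of Jmjd6 were at 0.16 and 0.070.

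The SET domain proteins with other or unsettled targets were Setd3 (an actin histidine methyltransferase), Setd4, Setd6 (which methylates the NF-kappaB subunit RelA) and Smyd5. By their brightest probe sets all were above 0, from 0.11 to 0.35, and none was called. The dimmer probe sets of Setd4 were at −0.12 and −0.097, and that of Smyd5 was at 0.012. Setd6 had 3.41, 3.25 and 3.30 at the site and 2.87, 2.89 and 3.15 between sites. Its groups did not overlap (0.35, SE 0.097, adjusted p = 0.101), but its other probe set was at −0.16 (adjusted p = 0.409). The control scaling, a setting that raises every gene, gave calls for Eed and Setd6 (0.73 and 0.75, adjusted p = 0.0294 and 0.0247).

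Probe sets of a gene often differed. Among the 23 genes with several probe sets, 12 had some above 0 and some below, and of the 73 probe sets 4 were called, each the brightest of its gene, beside 2.31% of all probe sets. Of the 4 called genes, Ezh2 and Kdm3a rest on their only probe set, and Kmt5b and Kdm6a on the brightest of several.

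**Figure D3:**
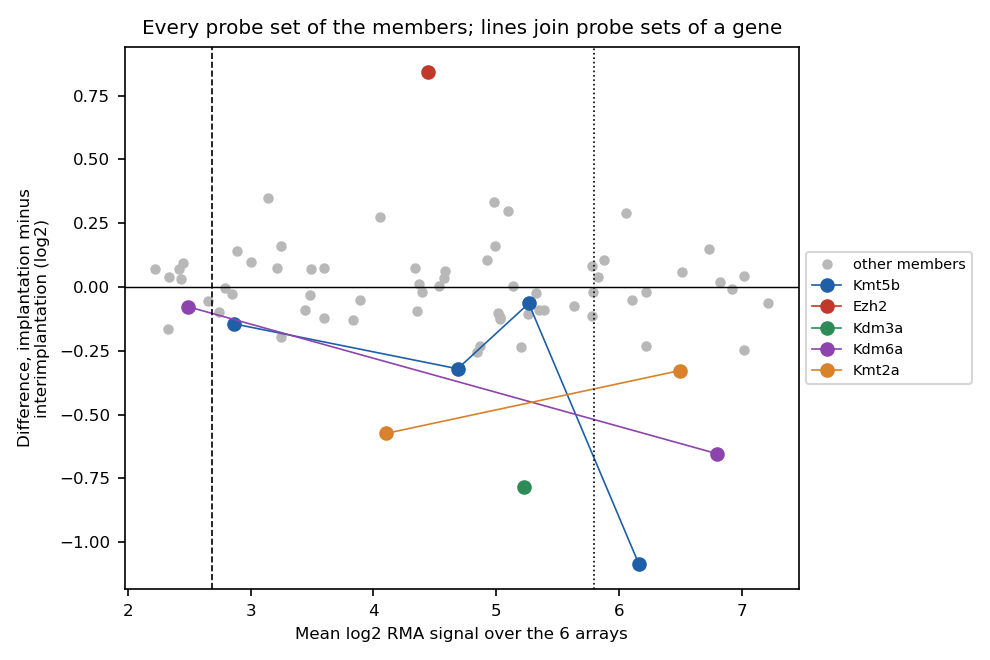
Difference (log2) of each of the 73 probe sets against its mean log2 signal over the 6 arrays, with lines joining the probe sets of 5 genes; the dashed line is the median (2.68) and the dotted line the brightest (5.79) of the Bacillus controls. The brightest probe set of Kmt5b lies at −1.09 and its other 3 between −0.32 and −0.064, and both probe sets of Kmt2a are below −0.3.

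The calls of the 4 genes were set against 16 alternative settings, among them leaving out each array. Ezh2 was called in all 15 in which it was measured (adjusted p from 3.61e-06 to 0.0247, differences from 0.80 to 1.24), since its level is too low for a filter at the median of all probe sets. Kmt5b was called in all 16 (adjusted p from 3.00e-04 to 0.0440), with differences from −1.25 to −0.40. Kdm3a was called in 15 of 16 (adjusted p from 0.00154 to 0.154) and Kdm6a in 14 of 16 (adjusted p from 0.00113 to 0.800). Without any single array all 4 kept their calls, with adjusted p up to 0.0261.

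**Figure D4:**
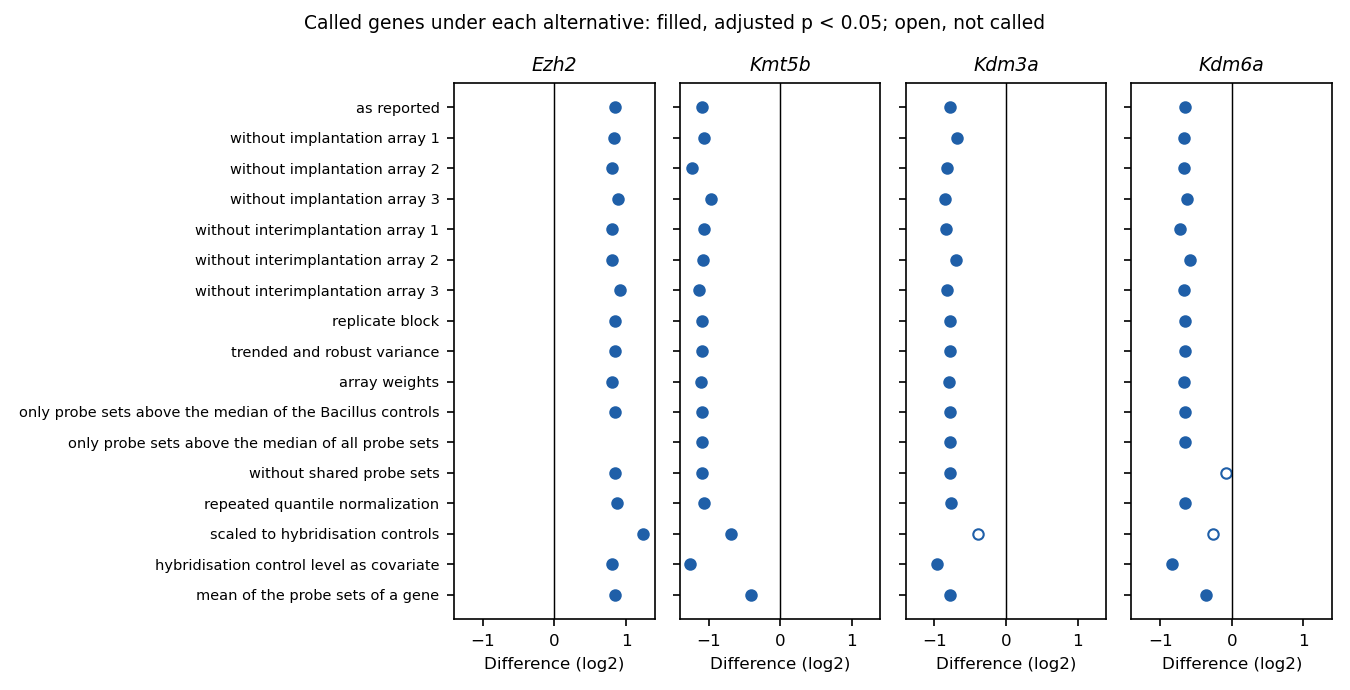
Difference (implantation minus interimplantation, log2) of the 4 called genes as reported and under each of 16 alternative settings; filled points had an adjusted p under 0.05. The open points are Kdm3a with scaling to the hybridisation controls (−0.39) and Kdm6a with that scaling (−0.26) and without shared probe sets (−0.077), and Ezh2 has no point for the filter at the median of all probe sets.

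Of 76 listed partner genes of these enzymes 62 were measured; 2 rose, 1 fell and 59 did not pass, so that 4.84% were called beside 2.54% of all genes. Trim28, the corepressor that recruits Setdb1, had 7.71, 7.80 and 7.67 at the site and 7.14, 6.97 and 7.07 between sites. The groups lay well apart (0.67, SE 0.085, adjusted p = 0.00190), and Trim28 was called in all 15 alternatives that measured it. Prmt1, the main enzyme of asymmetric arginine dimethylation, averaged 7.25 ± 0.27 at the site and 6.66 ± 0.20 between sites (SD, n = 3) and rose by 0.60 (adjusted p = 0.0415). Cxxc1, the CpG-binding subunit of the Setd1 complexes, averaged 5.85 ± 0.06 and 6.21 ± 0.01 (SD, n = 3) and fell by 0.37 (adjusted p = 0.0350).

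The last 2 of these calls were lost in several fits that left out 1 array, which also have fewer arrays. Over all such fits the difference stayed between 0.50 and 0.75 for Prmt1 and between −0.39 and −0.33 for Cxxc1. With the mean of the probe sets of a gene, Cxxc1 was at −0.23 (adjusted p = 0.158) and Prmt1 at 0.60 (adjusted p = 0.0569). Prmt1 was not called without implantation array 1 or 3 or interimplantation array 1 or 3 (adjusted p = 0.207, 0.188, 0.0687 and 0.113). Cxxc1 was not called without implantation array 1, 2 or 3 or interimplantation array 2 or 3 (adjusted p = 0.122, 0.127, 0.102, 0.0790 and 0.104). With the replicate number as a block neither was called (adjusted p = 0.0506 and 0.0563). Trim28, Prmt1 and Cxxc1 were measured only by shared probe sets, whose suffix is of the kind described for Kdm6a. The suffix by itself does not show that another gene adds to the signal. These genes had no value in the setting without shared probe sets.

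None of the 19 measured Polycomb accessory and complex 1 genes was called (median −0.0043), nor any of the 7 of the LSD1-CoREST complex (−0.010), the 4 of DNA methylation (−0.036), the 3 of S-adenosylmethionine supply (0.023) or the 5 writers and erasers outside the name rule (0.010). The last group includes the JmjC erasers Phf2 (0.010) and Phf8 (−0.11). The 9 COMPASS and MLL subunits, which hold Cxxc1, had a median of 0.071, and the 8 H3K9 readers and corepressors, which hold Trim28, one of 0.17. The 7 arginine methyltransferases, which hold Prmt1, had a median of 0.095.

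Marker genes of several cell types moved between the same groups. Of 19 measured cell cycle genes 7 rose and 0 fell, 17 were above 0, and their mean log2 level was 5.04 to 5.13 on the implantation arrays and 4.61 to 4.76 on the interimplantation arrays. Mki67 (0.023) and Top2a (0.027) were not called. Of 15 uterine epithelium markers 3 fell and 14 were below 0 (mean level 5.25 to 5.35 at the site and 5.50 to 5.61 between sites). Among these markers, Cdh1 was below the Bacillus median. Of 11 smooth muscle markers 2 fell and 8 were below 0 (5.25 to 5.47 and 5.65 to 5.88). Over all genes 1.36% were called higher and 1.18% lower. The trophoblast and embryo list had no called gene among 9, but 7 were below 0, and its mean level was 4.19 to 4.25 at the site and 4.26 to 4.32 between sites. This list and that of the uterine epithelium both name Krt8, and 56.2% of all genes were below 0. In each of these 4 lists the array levels of the groups did not overlap, and the part these shifts have in the differences of Ezh2, Kmt5b, Kdm3a, Kdm6a and Trim28 was not tested. No gene was called in the lists of stroma (12 measured, 8 above the brightest Bacillus control), endothelium (9), myeloid cells (10) or lymphocytes (10).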

How the data were processed

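The deposited table holds 22690 probe sets on 6 arrays in log2 values that the authors made with Partek 6.6 and RMA, per the submitters' processing notes. The notes do not give the log base, which was taken as 2 because RMA usually writes log2 and the values fit that range. RMA removes differences shared by all probe sets. Testing excluded 64 controls. Symbols came from the platform annotation (20380 probe sets with 1 symbol, 691 with several, 1555 with none). Of the 39 symbols, 37 occur in RefSeq's hamster gene table (assembly BCM_Maur_2.0); Kdm4c and Kdm5d were not matched. Of 57 writers and erasers listed, 18 were not found by the name rule and were not analysed here. Group differences were fitted by limma 3.58.1 in R 4.3.3 with group as sole term, two-sided, a calculation tested on simulated data. The text names every called member, the next 4 writers and 4 erasers by p, a few fixed genes and called partners; other members are given by their difference. Members, lists and alternatives were chosen with earlier results of these data known.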

Additional observations from a re-analysis of the deposited data

How the results depend on the processing

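The calls of the 4 members under the 16 alternatives stand with each gene; here follow the counts and medians that moved and the genes that changed sign, and the causes were not tested except where the setting itself removes genes. Over the leave-one-out settings 117 to 329 probe sets were higher and 88 to 401 lower (284 and 238 with all arrays), 1 to 2 partners were higher and 0 to 1 lower, and the medians ran from −0.013 to 0.057 for writers and from −0.15 to −0.055 for erasers. Ezh1 ran from −0.14 to 0.16 and Kdm5b from −0.48 to 0.073 in these settings. With array weights 363 probe sets were lower. With only probe sets above the median of all probe sets, 0 writers were called higher, since Ezh2 is not among them, and the medians were 0.0018 for writers and −0.18 for erasers. Without shared probe sets 138 were higher and 96 lower, the writers' median was −0.0073, 1 eraser was lower, 0 partners were higher and 0 lower, and Setd6 was at −0.16. With scaling to the hybridisation controls 752 were higher and 13 lower, 3 writers were higher (median 0.44), 0 erasers were lower (median 0.29), and 5 partners were higher and 0 lower. In that setting, which adds about 0.40 to every difference, Kmt2a was at 0.070, Kdm5d at 0.17, Kdm2b at 0.16, Kdm4c at 0.20, Kdm5b at 0.16, Kdm1a at 0.31, Kmt5a at 0.29 and Cxxc1 at 0.030. With the control level as a covariate 77 were higher and 130 lower, 1 partner was higher and 0 lower, and Kdm5b was at 0.081. With the mean of the probe sets of a gene 161 were higher and 134 lower (fewer features were tested), 2 writers were lower, 1 partner was higher and 0 lower, Ezh1 was at −0.045 and Kmt5a at 0.097.

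With the replicate number as a block 294 probe sets were higher and 240 lower, the 4 members kept their calls, and 1 partner was higher and 0 lower. Deviations of same-numbered arrays from their group means correlated at −0.090, 0.071 and −0.028, so no pairing by number was seen in the values.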
